A study of Arabidopsis thaliana with 9 samples.

Results

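An overexpression line and a mutant line of the TINY gene family of Arabidopsis thaliana were set together against wild type, to ask which genes differed the same way in both. TINY encodes a transcription factor of the AP2/ERF class (DREB subfamily), a group known for binding promoter elements of stress-responsive genes, and the title of the study places it between brassinosteroid growth signalling and the drought response. Brassinosteroids are plant steroid hormones that drive cell expansion through the BES1 family of transcription factors. The members were all 9 libraries of the series: 3 of wild type (WT), 3 of an overexpression line (TINYOE, labelled BES1P::TINYOE, so that the transgene is named for the BES1 promoter) and 3 of a mutant line (tiny124, labelled tiny1tiny2tiny4). Each line entered the mean with a weight of 0.5, so that the 6 line libraries stood against the 3 WT libraries. All plants were 4 weeks old, under days with 16 h light and nights of 8 h, and the tissue was the whole rosette. The labels give no number of independent transgenic lines, do not say whether a library held 1 plant or a pool, and do not give the hour of harvest. The p-values therefore measure the spread between these libraries.

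The assay was QuantSeq, which counts 1 tag near the 3' end of each mRNA, and the libraries held 4917868 to 6070778 counts. Levels are given as CPM, a gene's count relative to its library's total, scaled between libraries by TMM. A gene was called when its adjusted p was at or under 0.05 in edgeR's quasi-likelihood test with Benjamini-Hochberg adjustment over all genes tested. A fold change is of the mean of both lines against WT on the log2 scale, with its standard error, unless a line is named. Of 32833 genes, 16434 were tested. The 193 tested genes from AT1G78410 to AT1G80970, a block at the end of chromosome 1, were left out of all counts below, which leaves 16241. The median change over those was -0.02 for the mean and -0.01 in each line.

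TINY itself did not move the same way in the lines. It was at 3.80, 3.81 and 4.58 CPM in WT, at 5.43, 6.14 and 4.61 in TINYOE and at 0.565, 0.827 and 0.726 in tiny124. The tiny124 libraries were all below WT and the TINYOE libraries all above it, but the difference in TINYOE did not pass (0.40, adjusted p = 0.343), while that in tiny124 did (-2.48, adjusted p = 0.00168). Tags come from the 3' end, and the labels do not say which 3' end the transgene carries. The mean of both lines was lower (-1.04 ± 0.28, adjusted p = 0.0333), a call that was lost without each of WT replicates 1 and 3, TINYOE replicates 1, 2 and 3 and tiny124 replicates 1, 2 and 3 (adjusted p up to 0.145). TINY2 was too low to be tested, since WT libraries held 5, 7 and 11 counts, TINYOE libraries 2, 1 and 0, and tiny124 libraries 1, 0 and 0.

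Counts differed more between WT libraries, with a chi-square per gene of 11.97 to 25.4 between pairs, than between those of TINYOE (5.34 to 10.04) or tiny124 (5.13 to 11.5). On the axis of a principal component analysis that held 43.0% of the variance, WT replicate 2 lay at 0.53, between WT replicates 1 and 3 (-53.9 and -31.5) and the TINYOE libraries (39.2 to 53.2). The tiny124 libraries lay at -32.0 to -6.82. Defining leaf markers were abundant in every library, with a summed level of 18288 to 22850 CPM in WT, 13955 to 15983 in TINYOE and 18420 to 19820 in tiny124. Of these 6 markers, 2 were lower in the mean (1 without WT replicate 3, TINYOE replicate 2 or 3 or any tiny124 replicate). In single lines, 4 were lower in TINYOE and 0 in tiny124. The 10 inflorescence markers summed to 26.7 to 37.8 CPM in WT, 44.9 to 85.9 in TINYOE and 38.3 to 43.1 in tiny124. None of the 8 tested was called in the mean by edgeR or DESeq2 (3 at an unadjusted p under 0.05), but 2 were higher in TINYOE by edgeR. The 10 root markers summed to 13.6 to 15.6 CPM in WT, 18.3 to 19.3 in TINYOE and 22.03 to 48.1 in tiny124. None of the 3 tested was called in the mean by edgeR or DESeq2 (2 at an unadjusted p under 0.05), but 1 was higher in tiny124 by edgeR. The 7 seed and pollen markers summed to 0.165 to 6.49 CPM, with SESA1 and EM1 at 0 in all libraries. The part of these markers in the results below was not tested, and in whole rosettes fewer cells of a type and less RNA per cell cannot be told apart.

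In the mean of both lines 1061 genes were called, 6.53% of those tested, of which 564 were higher (3.47%) and 497 lower (3.06%). The change was at least 2-fold in 303 of the higher and 127 of the lower genes. A large effect in 1 line can carry a mean, so each gene was also read in each line, with the limit that both lines were set against the same WT libraries. Among the higher genes 184 passed in each line as well (1.13% of those tested), 327 passed in TINYOE only, 41 in tiny124 only and 12 in neither. Among the lower genes 68 passed in each line (0.419%), 396 in TINYOE only, 18 in tiny124 only and 12 in neither. The shared genes were thus more often higher than lower, and their median change was 1.29 for those higher and -1.06 for those lower. In 181 of the 184 and in 67 of the 68 all 6 line libraries lay beyond all 3 WT libraries, which follows largely from their selection, and nothing is read from it. Over all genes that share was 4.33% above WT and 3.52% below it. Direct comparison of the lines called 1484 genes (9.14%), among them 350 of those called in the mean. Among the shared genes, 27 of the 184 and 7 of the 68 differed between the lines, which is no smaller a share than over all genes.

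Genes that plants switch on in darkness or when sugar runs low were among the largest shared increases. Among them are genes of the scaffold proteins with BTB and TAZ domains (BT1 to BT5), which assemble ubiquitin ligases. The mRNA of BT2 is known to be repressed by sugar. BT2 (AT3G48360) was at 16.9, 40.9 and 15.9 CPM in WT, at 401, 436 and 422 in TINYOE and at 195, 195 and 252 in tiny124. All line libraries lay above WT, and those of TINYOE above those of tiny124. The mean was 12.3-fold higher than WT (log2 fold change 3.62 ± 0.28, adjusted p = 2.59e-06), with 4.102 in TINYOE and 3.13 in tiny124, and the lines differed by 0.97 (adjusted p = 0.0233). BT1 (AT5G63160) had the same order, at 47.8, 65.6 and 41.4 CPM in WT, at 275, 339 and 338 in TINYOE and at 144, 136 and 219.9 in tiny124. It was 4.46-fold higher (2.16 ± 0.20, adjusted p = 1.99e-05), and here too TINYOE exceeded tiny124, by 0.93 (adjusted p = 0.00872). BT5 (AT4G37610) was at 15.4, 14.0 and 10.08 CPM in WT, at 42.2, 50.5 and 47.5 in TINYOE and at 52.2, 44.5 and 55.6 in tiny124. The ranges of the lines overlapped and both were above WT, with a mean change of 1.89 ± 0.18, adjusted p = 2.13e-05. BT4 rose by 1.19 ± 0.19, adjusted p = 0.00123, with 1.14 in TINYOE and 1.23 in tiny124. BT3, at 6.46, 4.02 and 4.03 CPM in WT, at 5.43, 6.66 and 3.93 in TINYOE and at 4.71, 3.14 and 3.63 in tiny124, was the only member that did not pass (-0.10 ± 0.27, adjusted p = 0.858). Thus 4 of the 5 BT genes rose in the mean and in each line, and all 4 did so in the mean under every alternative that was run.

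Dark-inducible and sugar-starvation genes, a list that holds the DIN genes and enzymes that burn amino acids when carbon is short, changed in 1 direction. Of the 27 listed, 25 were tested, 14 were higher and none was lower, and 10 of the 14 passed in each line. Over all genes tested 3.47% were higher, 3.06% lower and 1.13% higher in each line, which is the measure for each list count below. The gene lists, this one included, were chosen with earlier results of these data known. The median of the list was 1.1 in the mean, 1.02 in TINYOE and 0.81 in tiny124. SEN1 (AT4G35770), also known as DIN1 and a marker of dark-induced leaf senescence, was at 24.3, 31.3 and 17.599 CPM in WT, at 189, 242 and 199 in TINYOE and at 84.9, 64.3 and 86.6 in tiny124. No line library overlapped WT, and the increase of 2.398 ± 0.20, adjusted p = 7.91e-06 was larger in TINYOE by 1.42 (adjusted p = 2.74e-04). ASN1 (AT3G47340, DIN6), an asparagine synthetase that stores nitrogen in a carbon-poor form at night, was at 11.01, 13.3 and 13.0 CPM in WT, at 57.8, 53.5 and 36.9 in TINYOE and at 51.6, 36.7 and 34.3 in tiny124. No line library overlapped WT, with 1.99 in TINYOE and 1.71 in tiny124 and 1.85 ± 0.21, adjusted p = 6.76e-05 in the mean. DYL1 (AT1G28330), a dormancy-associated gene repressed by sugar, was among the more abundant, at 252, 252 and 237 CPM in WT, at 655, 850.3 and 655 in TINYOE and at 562, 492 and 622 in tiny124. It rose by 1.36 ± 0.15, adjusted p = 5.56e-05. STP1, the main hexose importer of the plasma membrane, rose by 1.11 ± 0.17, adjusted p = 7.74e-04, from 379.9, 391 and 276 CPM in WT to 682, 946 and 988 in TINYOE and 591, 634 and 726 in tiny124. DIN10, of the raffinose synthase family, rose by 1.19 ± 0.18, adjusted p = 7.84e-04, and BGAL4, a beta-galactosidase, by 1.95 ± 0.30, adjusted p = 9.34e-04.

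The EXORDIUM family, whose members are tied to growth under low carbon, split within that list. EXL1 (AT1G35140) was at 2.28, 8.26 and 3.30 CPM in WT, at 18.4, 7.89 and 15.2 in TINYOE and at 33.1, 28.3 and 20.9 in tiny124. The lowest TINYOE library fell within the WT range, whereas tiny124 lay above it, and the mean change of 2.102 ± 0.35, adjusted p = 0.0017 moved to 2.80 without WT replicate 2. EXL2 rose by 1.097 ± 0.19, adjusted p = 0.0025 with 1.01 in TINYOE and 1.19 in tiny124. EXO, at 0.65 in TINYOE and 1.56 in tiny124, passed in the mean (1.105 ± 0.22, adjusted p = 0.00507) but in tiny124 only, and EXL4 did not pass (0.07 ± 0.16, adjusted p = 0.829). SIS rose in each line (3.04 in TINYOE and 1.404 in tiny124) and by more in TINYOE (difference 1.63, adjusted p = 4.46e-04). The beta subunit AKINBETA1 of SnRK1, the kinase that signals low energy, rose by 0.84 ± 0.17, adjusted p = 0.00702, a call lost without WT replicate 3 (adjusted p = 0.0565). Of the enzymes of leucine breakdown, MCCA rose by 1.13 ± 0.22, adjusted p = 0.00476. IVD rose by 0.96 ± 0.21, adjusted p = 0.00967 but not without WT replicate 3 (adjusted p = 0.0598). BCE2 (0.83 ± 0.24, adjusted p = 0.0499) lost its call without each of WT replicates 1 and 3, TINYOE replicates 2 and 3 and tiny124 replicates 1, 2 and 3 (adjusted p up to 0.208). DIN11, a dioxygenase, passed in tiny124 alone (1.998, adjusted p = 0.014, against 0.27 in TINYOE), and its mean did not pass (adjusted p = 0.0968).

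**Figure D1:**
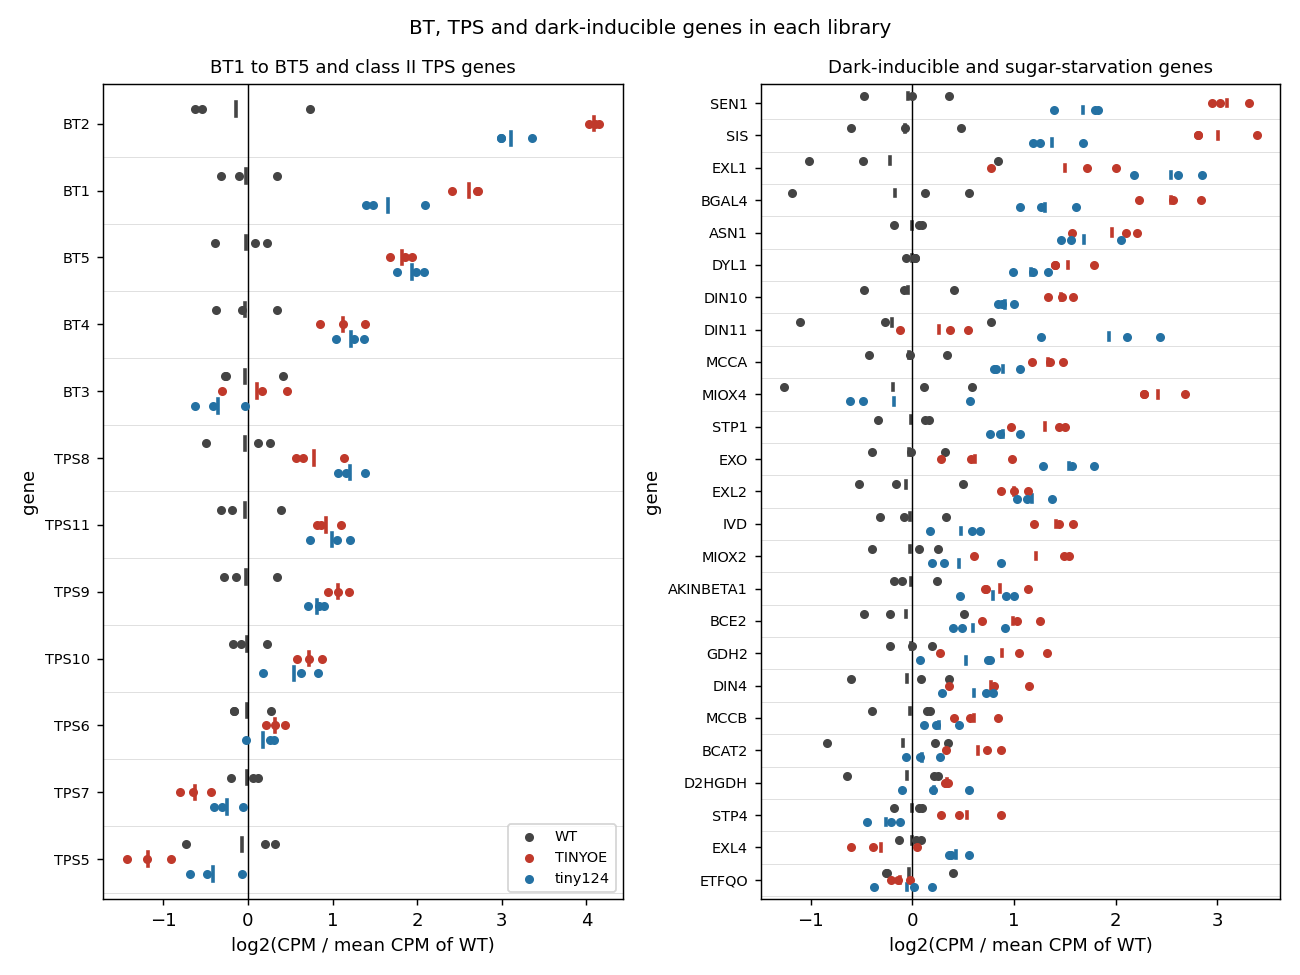
Level of every tested member of the BT, class II TPS and dark-inducible lists in each library, as log2 of CPM over the WT mean (points, 3 per genotype; the short bars are the mean of the 3 points; 0 is the WT mean). BT1, BT2, BT4 and BT5 and 10 of the 25 dark-inducible genes lie to the right of all WT points in both lines, whereas BT3, TPS5 and TPS7 do not.

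Class II trehalose phosphate synthases, proteins without clear enzyme activity that follow the sugar status of the cell, were higher in 4 of 7 tested (median 0.65). TPS11 (AT2G18700) was at 80.5, 119.9 and 73.5 CPM in WT, at 167, 161 and 195 in TINYOE and at 151, 189 and 211 in tiny124, with all line libraries above WT and a change of 0.97 ± 0.18, adjusted p = 0.00318. TPS8 rose by 1.002 ± 0.20, adjusted p = 0.00566 and TPS9 by 0.95 ± 0.19, adjusted p = 0.00554. TPS10 rose by 0.65 ± 0.17, adjusted p = 0.0315, a call lost without each of WT replicate 3, TINYOE replicates 1 and 2 and tiny124 replicates 1 and 3 (adjusted p up to 0.158). TPS5 (-0.78 ± 0.24, adjusted p = 0.0624) and TPS7 (-0.43 ± 0.14, adjusted p = 0.0857) lay below WT and did not pass in the mean, and both passed as lower in TINYOE (-1.16 and -0.62).

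The other genes among the 12 with the largest shared increase had varied roles. XTH22 (AT5G57560), the touch-inducible TCH4 gene that encodes an enzyme remodelling wall xyloglucan, was at 9.30, 25.0 and 16.3 CPM in WT, at 85.9, 61.7 and 61.9 in TINYOE and at 96.8, 80.4 and 72.1 in tiny124. The lowest line library held over 2-fold the highest WT level, and the change was 2.18 ± 0.25, adjusted p = 9.30e-05 (4.53-fold). ATL31 (AT5G27420), a RING ubiquitin ligase of the carbon and nitrogen response, was at 19.4, 23.7 and 19.2 CPM in WT, at 97.5, 75.5 and 86.1 in TINYOE and at 80.6, 49.9 and 68.8 in tiny124, clear of WT in both lines (1.87 ± 0.19, adjusted p = 2.74e-05). BCB (AT5G20230), a blue-copper-binding wall protein, was at 20.9, 48.3 and 28.2 CPM in WT, at 152, 113 and 97.0 in TINYOE and at 122, 93.6 and 80.8 in tiny124. It rose by 1.75 ± 0.25, adjusted p = 4.98e-04. LBD41, a LOB-domain factor known from hypoxia, rose by 1.83 ± 0.35, adjusted p = 0.00493, NAC090, a NAC-domain factor, by 1.81 ± 0.32, adjusted p = 0.00246. LOX4, a lipoxygenase of jasmonate synthesis, rose by 1.803 ± 0.33, adjusted p = 0.00289. It does not stand for that pathway: of 15 tested genes of jasmonate synthesis and turnover, 1 was higher and 1 lower in the mean. In TINYOE 1 of them was higher and 7 were lower, and in tiny124 1 was higher and 0 were lower. CYP706A2, a cytochrome P450, was the only one of these 12 whose increase passed the test as larger in tiny124 (2.80) than in TINYOE (1.55, adjusted p of the difference = 0.00829).

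**Figure D2:**
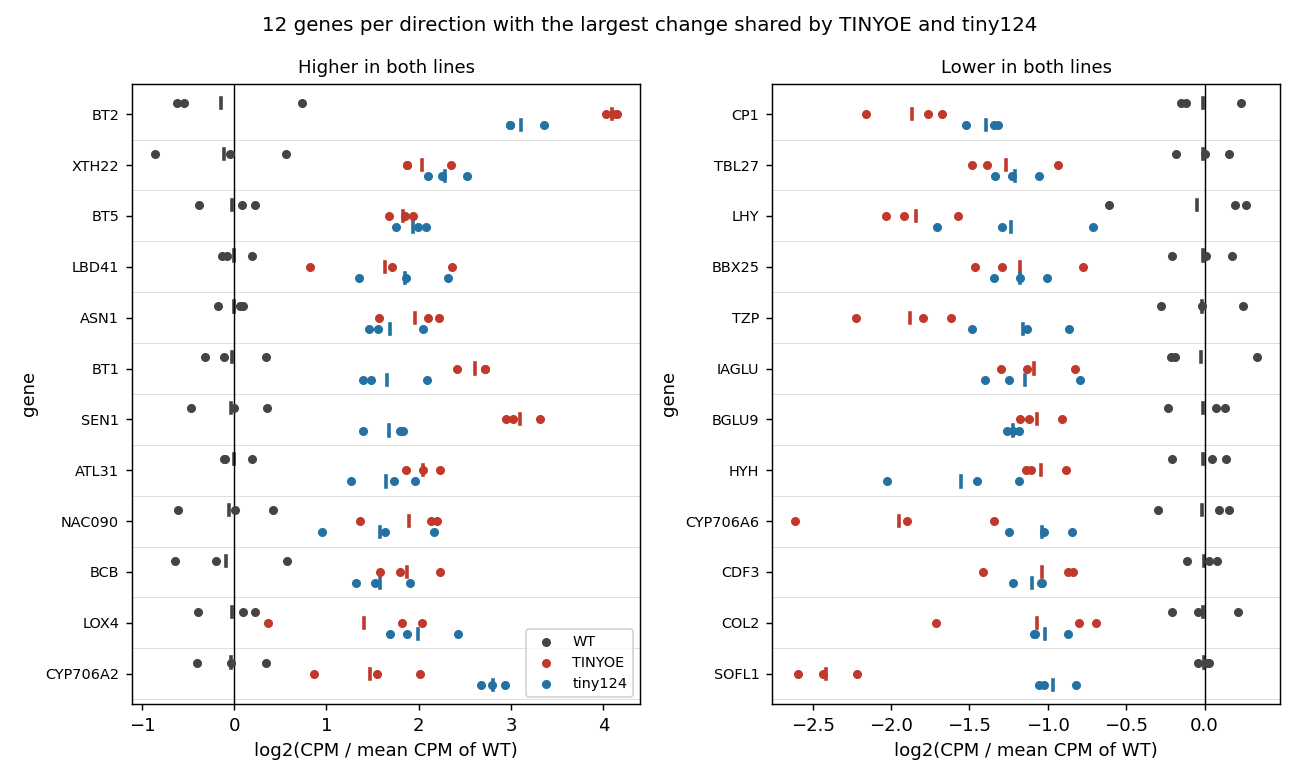
The 12 genes per direction with a symbol and the largest change shared by both lines, ranked from the top by the smaller of the line effects (axis as log2 of CPM over the WT mean; points are libraries, 3 per genotype; short bars are the mean of the 3 points). The genes were picked for lying beyond WT in all 6 line libraries, from BT2 (3.62 in the mean) to SOFL1 (-1.68).

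Rapid stress and wound regulators are genes that leaves switch on within minutes of stress. The list holds transcription factors, kinases, ubiquitin ligases and other regulators. Its members were higher in 12 of 29 tested and lower in none (median 0.74 in the mean, 0.82 in TINYOE and 0.79 in tiny124). Of the 12, 6 passed in each line, among them ATL31, which is described above. SZF1 (AT3G55980), a zinc-finger protein induced by salt, was at 49.4, 59.7 and 58.8 CPM in WT, at 149.5, 106 and 137 in TINYOE and at 215, 153 and 215 in tiny124. Its mean change was 1.51 ± 0.17, adjusted p = 8.92e-05, with no overlap with WT. ERF6, an ethylene response factor of the stress response, was at 5.32, 7.41 and 5.87 CPM in WT, at 18.1, 11.4 and 15.2 in TINYOE and at 26.5, 12.6 and 22.2 in tiny124. The increase was 1.49 ± 0.26, adjusted p = 0.00222. The C2H2 zinc-finger gene AZF1 rose by 1.92 ± 0.37, adjusted p = 0.00429 from at most 1.28 CPM in WT, and WRKY18, an immune regulator, by 0.94 ± 0.18, adjusted p = 0.00526. The count was 5 without WT replicate 3, where the calls of ZAT7, SZF2, WRKY53, WRKY33, ERF104, ZAT12 and MPK3 were lost. ZAT7 (1.16 ± 0.24, adjusted p = 0.00716) was lost without WT replicate 3 (adjusted p = 0.0533). SZF2 (0.99 ± 0.20, adjusted p = 0.00779) was lost without WT replicate 3 (adjusted p = 0.0655), and WRKY53 (1.02 ± 0.22, adjusted p = 0.0105) without WT replicate 3 (adjusted p = 0.0777). WRKY33 (0.91 ± 0.21, adjusted p = 0.0177) was lost without WT replicate 1 (adjusted p = 0.0818) or WT replicate 3 (adjusted p = 0.059). ERF104 (1.05 ± 0.25, adjusted p = 0.0191) was lost without WT replicate 1 (adjusted p = 0.0788) or WT replicate 3 (adjusted p = 0.0718). ZAT12 (1.11 ± 0.29, adjusted p = 0.0291) was lost without each of WT replicates 1 and 3, TINYOE replicate 1 and tiny124 replicate 1 (adjusted p up to 0.11). The kinase gene MPK3 was at 32.8, 101 and 63.1 CPM in WT, at 189, 127 and 132 in TINYOE and at 149.9, 111 and 87.7 in tiny124, where WT replicate 2 overlapped the lines. Its call (1.002 ± 0.28, adjusted p = 0.0386) was lost without each of WT replicates 1 and 3, TINYOE replicates 1, 2 and 3 and tiny124 replicates 1 and 2 (adjusted p up to 0.144).

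A list of touch genes and calmodulin-like genes, most of them calcium sensors, was higher in 5 of 14 tested and lower in none (median 0.47). The 5 were TCH3, CML38, CML24, CML37 and the wall enzyme gene XTH22, and the count was 3 without WT replicate 1, WT replicate 3 or tiny124 replicate 1. TCH3 (AT2G41100) was at 338, 406 and 376 CPM in WT, at 774, 641 and 743 in TINYOE and at 709, 679.5 and 789 in tiny124. No line library overlapped WT, with 0.95 in TINYOE and 0.96 in tiny124 and 0.95 ± 0.14, adjusted p = 5.76e-04 in the mean. CML38 (AT1G76650) was at 25.1, 28.4 and 35.9 CPM in WT, at 51.7, 55.9 and 54.3 in TINYOE and at 167, 119 and 144 in tiny124. Its increase (1.56 ± 0.17, adjusted p = 5.91e-05) was larger in tiny124 by 1.41 (adjusted p = 1.08e-04). CML24 (0.68 ± 0.17, adjusted p = 0.0212) was lost without each of WT replicates 1 and 3 and tiny124 replicate 1 (adjusted p up to 0.0925). CML37 (1.72 ± 0.43, adjusted p = 0.0229) was lost without each of WT replicates 1 and 3 and tiny124 replicate 1 (adjusted p up to 0.132), and its change was 2.38 without WT replicate 2. Of the WRKY factors outside the left-out block, 5 of 38 tested were higher (13.2%, against 3.47% of all genes) and none lower (median 0.23), with 3 higher when WT replicate 3 was left out. WRKY18, WRKY33 and WRKY53 are among these 5 and were also counted in the rapid stress list, so the counts of these lists are not separate results. WRKY15 (AT2G23320) was at 5.70, 6.78 and 6.05 CPM in WT, at 25.5, 15.4 and 14.2 in TINYOE and at 19.0, 16.9 and 16.2 in tiny124. Its mean change was 1.53 ± 0.22, adjusted p = 6.81e-04, and WRKY22 rose by 1.58 ± 0.26, adjusted p = 0.00165, both clear of WT.

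Genes that peak around dawn were among those with a shared decrease. The plant clock runs on repressors that follow each other through the day: LHY and CCA1 at dawn, PRR9 and the LNK coactivators in the morning, and TOC1 and the evening complex later. Their mRNA is known to swing with the hour, and the labels give no hour of harvest. LHY (AT1G01060) was at 139, 76.0 and 133 CPM in WT, at 30.8, 39.1 and 28.4 in TINYOE and at 47.4, 35.6 and 70.8 in tiny124. The highest line library, tiny124 replicate 3, was still below the lowest WT library, and the mean was 2.83-fold lower (-1.50 ± 0.21, adjusted p = 5.28e-04), with -1.83 in TINYOE and -1.18 in tiny124. LNK3 (AT3G12320) was at 46.3, 30.3 and 39.97 CPM in WT, at 13.3, 17.2 and 11.6 in TINYOE and at 16.4, 15.9 and 18.9 in tiny124. LNK1 (AT5G64170) was at 57.0, 43.4 and 57.4 CPM in WT, at 19.9, 20.5 and 27.5 in TINYOE and at 25.6, 31.3 and 32.9 in tiny124. Neither overlapped WT, and both fell (LNK3 -1.33 ± 0.17, adjusted p = 2.67e-04, and LNK1 -1.01 ± 0.16, adjusted p = 0.00115). CCA1 (AT2G46830) was at 25.8, 35.8 and 38.1 CPM in WT, at 26.3, 18.1 and 18.6 in TINYOE and at 18.8, 16.2 and 18.9 in tiny124, where TINYOE replicate 1 exceeded WT replicate 1. Its call (-0.77 ± 0.17, adjusted p = 0.0133) was lost without WT replicate 3 (adjusted p = 0.101). PRR9, under 4 CPM in all libraries, was lower (-1.89 ± 0.39, adjusted p = 0.0072) but not without WT replicate 1 (adjusted p = 0.0725). LNK2 (-0.79 ± 0.17, adjusted p = 0.0113) was lost without WT replicate 1 (adjusted p = 0.0592) or WT replicate 3 (adjusted p = 0.0531). LNK4 (-0.57 ± 0.16, adjusted p = 0.0387) was lost without each of WT replicates 1, 2 and 3, TINYOE replicates 1 and 3 and tiny124 replicates 1, 2 and 3 (adjusted p up to 0.0989).

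In all, 7 of the 13 dawn and morning genes were lower and none higher, 4 of them in each line (median -0.57 in the mean, -0.60 in TINYOE, -0.68 in tiny124). The count was 4 without WT replicate 1 or WT replicate 3. The partners RVE4, RVE8 and PRR7 did not pass, with PRR7 at -0.04 ± 0.13, adjusted p = 0.894. Of 12 tested genes in the list of afternoon and evening genes, which also holds CDF factors, 1 was lower, with a median of -0.08. It was CDF3 (AT3G47500), a DOF factor that delays flowering, at 55.8, 50.6 and 57.7 CPM in WT, at 20.6, 30.0 and 30.6 in TINYOE and at 26.5, 23.5 and 26.7 in tiny124 and clear of WT in both lines (-1.06 ± 0.15, adjusted p = 6.39e-04). The hour at which CDF3 peaks was not tested, so its decrease is not read as one of evening genes. TOC1 (0.46 ± 0.18, adjusted p = 0.154) and LUX (0.70 ± 0.22, adjusted p = 0.0694) lay above WT in all 6 line libraries and did not pass, and GI was at -0.21 ± 0.19, adjusted p = 0.567.

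Light-signalling genes of the B-box (BBX) and HY5 group, which adjust growth and pigment to light, were lower in 6 and higher in 1 of 20 tested (median -0.44). BBX25 (AT2G31380), a B-box partner of HY5, was at 34.6, 26.5 and 30.8 CPM in WT, at 12.5, 17.9 and 11.1 in TINYOE and at 13.6, 12.1 and 15.3 in tiny124, clear of WT in both lines and 2.23-fold lower (-1.16 ± 0.17, adjusted p = 7.84e-04). HYH (AT3G17609), the close homologue of HY5, was at 8.16, 10.4 and 9.72 CPM in WT, at 5.10, 4.38 and 4.27 in TINYOE and at 4.14, 2.32 and 3.45 in tiny124, also with no overlap (-1.27 ± 0.22, adjusted p = 0.00199), whereas HY5 itself was at -0.11 ± 0.21, adjusted p = 0.794. COL2, a CONSTANS-like B-box gene, fell as well (-1.01 ± 0.20, adjusted p = 0.00576). BBX28 (-0.83 ± 0.17, adjusted p = 0.00778) was lost without WT replicate 1 (adjusted p = 0.0646). BBX24 (-0.47 ± 0.13, adjusted p = 0.043) was lost without each of WT replicates 1 and 3, TINYOE replicates 1, 2 and 3 and tiny124 replicates 1 and 2 (adjusted p up to 0.187). ELIP2, an early light-induced protein, was lower in tiny124 alone (-1.26, against 0.11 in TINYOE). Its mean (-0.58 ± 0.16, adjusted p = 0.0447) was lost without each of WT replicates 2 and 3, TINYOE replicates 1, 2 and 3 and tiny124 replicates 1, 2 and 3 (adjusted p up to 0.196). BBX14 was the member that rose (0.61 ± 0.15, adjusted p = 0.023), a call lost without each of WT replicate 3 and TINYOE replicates 2 and 3 (adjusted p up to 0.145).

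**Figure D3:**
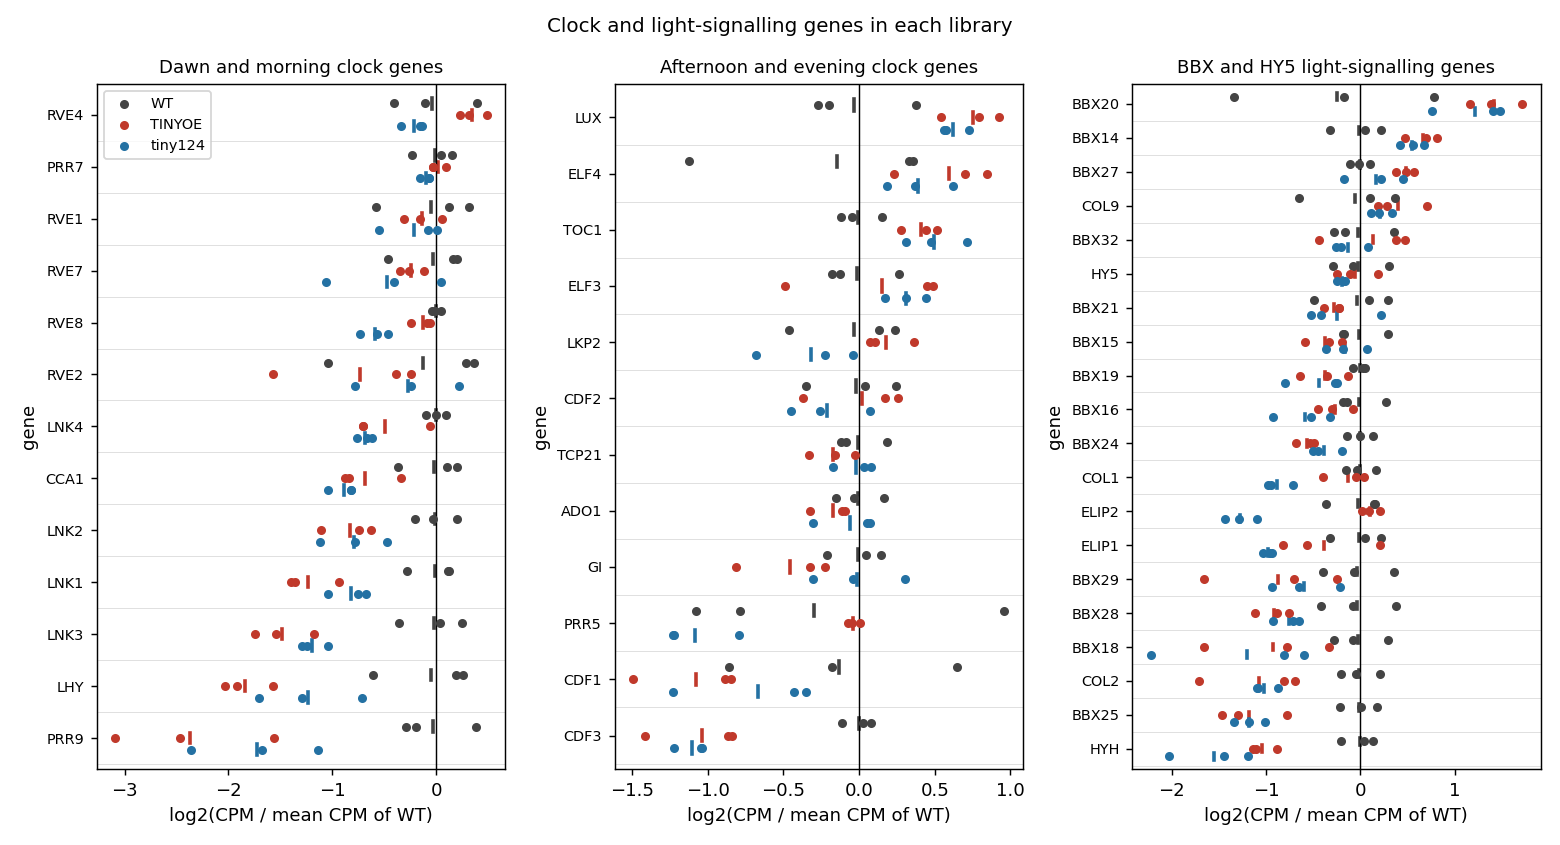
Every tested clock, BBX and HY5 gene in each library, as log2 of CPM over the WT mean (points, 3 libraries per genotype; short bars are the mean of the 3 points; 0 is the WT mean), ordered from higher to lower in the mean. LHY, LNK1, LNK3, CDF3, BBX25, COL2 and HYH lie to the left of all WT points in both lines, and RVE4, PRR7 and GI spread around 0.

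The remaining genes with the largest shared decrease did not belong to those groups. SOFL1 (AT1G26210), of a family linked to cytokinin content, was at 19.0, 19.7 and 19.98 CPM in WT, at 3.62, 4.21 and 3.25 in TINYOE and at 9.60, 9.43 and 11.1 in tiny124. WT was tight and both lines were below it, TINYOE by more (difference -1.44, adjusted p = 5.06e-04), and the mean change was -1.68 ± 0.17, adjusted p = 2.36e-05. CP1 (AT5G49480), a calcium-binding protein, was at 27.5, 21.2 and 21.6 CPM in WT, at 6.92, 5.26 and 7.35 in TINYOE and at 9.41, 9.26 and 8.17 in tiny124. Its mean change was -1.62 ± 0.17, adjusted p = 4.40e-05. TZP, a zinc-knuckle protein of light-dependent growth, changed by -1.49 ± 0.22, adjusted p = 6.43e-04, and CYP706A6, a cytochrome P450, by -1.44 ± 0.21, adjusted p = 6.69e-04. IAGLU, which attaches glucose to the auxin indole-3-acetic acid, was at 28.3, 19.3 and 19.6 CPM in WT, at 10.2, 9.11 and 12.6 in TINYOE and at 8.47, 12.9 and 9.44 in tiny124. Its mean change was -1.09 ± 0.19, adjusted p = 0.00229. TBL27, also called AXY4 and needed for acetyl groups on xyloglucan, changed by -1.22 ± 0.20, adjusted p = 0.00154, and the beta-glucosidase BGLU9 by -1.14 ± 0.16, adjusted p = 4.29e-04.

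Genes of the shade response, in which PIF factors raise homeodomain genes when red light is filtered by neighbours, were higher in 5 and lower in 1 of 15 tested (median 0.77), yet only HB-2 passed in each line. HB-2 (AT4G16780), known as ATHB2, was at 7.21, 13.8 and 11 CPM in WT, at 46.6, 48.9 and 44.1 in TINYOE and at 29.2, 26.1 and 28.7 in tiny124. Both lines were clear of WT and of each other, with a mean of 1.76 ± 0.19, adjusted p = 6.41e-05 and a difference of 0.73 between the lines (adjusted p = 0.0239). HAT3 was at 13.3, 22.4 and 17.0 CPM in WT, at 55.3, 57.5 and 46.6 in TINYOE and at 29.4, 26.3 and 25.4 in tiny124. HAT2 was at 83.5, 85.3 and 75.7 CPM in WT, at 155, 190.4 and 178 in TINYOE and at 114, 110.5 and 115 in tiny124. All line libraries of both genes exceeded WT, but the means (1.11 ± 0.18, adjusted p = 0.00143, and 0.78 ± 0.14, adjusted p = 0.00224) rested on TINYOE, since tiny124 alone did not pass (adjusted p = 0.157 and 0.157). HFR1, an atypical bHLH factor that restrains the response, rose from at most 0.917 CPM in WT to 7.41, 5.43 and 6.83 in TINYOE and 1.51, 1.32 and 2.36 in tiny124 (2.49 ± 0.49, adjusted p = 0.00556). PIF5 (0.77 ± 0.21, adjusted p = 0.0369) was lost without each of WT replicates 1 and 3, TINYOE replicates 1 and 2 and tiny124 replicates 1 and 2 (adjusted p up to 0.158). PIF7, the member that was lower (-0.73 ± 0.19, adjusted p = 0.0284), was lost without each of WT replicates 1 and 3, TINYOE replicates 1 and 2 and tiny124 replicates 1 and 2 (adjusted p up to 0.16). HAT1 (AT4G17460), of the same homeodomain subfamily and a partner of BES1, was at 36.3, 40.7 and 36.3 CPM in WT, at 74.4, 83.8 and 82.9 in TINYOE and at 99.8, 79.7 and 93.3 in tiny124. The changes were 1.09 in TINYOE and 1.27 in tiny124, and 1.18 ± 0.15, adjusted p = 1.90e-04 in the mean.

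Of the 12 tested genes of brassinosteroid synthesis and inactivation, none was called in the mean by edgeR or DESeq2 and 2 had an unadjusted p under 0.05. DWF1, a sterol reductase of that pathway, had the smallest p (-0.38 ± 0.17, adjusted p = 0.207, with -0.73 in TINYOE and -0.03 in tiny124). Of 17 signalling genes 2 were higher, HAT1 and MYB30. MYB30 (0.77 ± 0.22, adjusted p = 0.041) lost its call without each of WT replicates 1, 2 and 3, TINYOE replicates 1, 2 and 3 and tiny124 replicates 1 and 2 (adjusted p up to 0.161). Of 8 growth bHLH factors none passed with edgeR and 1 with DESeq2, with 3 at an unadjusted p under 0.05, and BEE2 came nearest (0.47 ± 0.15, adjusted p = 0.0756). Of 9 tested DREB-type factors 2 were higher and 1, TINY, was lower, and none passed in each line. Entries whose symbol the annotation does not give had been dropped from that list. Among these was ERF43 (AT4G32800), which fell in both lines and is given below with the loci without a symbol. Of the 2 higher members, DEAR2 (0.67 ± 0.16, adjusted p = 0.0194) was lost without WT replicate 1 (adjusted p = 0.0729) or WT replicate 3 (adjusted p = 0.0662). CEJ1 (0.89 ± 0.25, adjusted p = 0.04) was lost without each of WT replicates 1 and 3, TINYOE replicates 1, 2 and 3 and tiny124 replicates 1 and 2 (adjusted p up to 0.205). Of 17 tested auxin genes (Aux/IAA repressors and GH3 enzymes) 2 were higher and 1 lower in the mean (median 0.02), and 1 passed in each line. Among the higher genes IAA2, a repressor that auxin induces, was at 53.3, 76.7 and 55.9 CPM in WT, at 108, 119.9 and 107 in TINYOE and at 126, 113 and 111 in tiny124. The changes were 0.85 in TINYOE and 0.91 in tiny124, and 0.88 ± 0.15, adjusted p = 0.00229 in the mean.

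Single genes of other pathways also rose in each line. LBD38 (AT3G49940), which represses nitrate-responsive and anthocyanin genes, was at 12.5, 23.5 and 18.9 CPM in WT, at 66.5, 52.2 and 54.7 in TINYOE and at 34.1, 32.2 and 38.0 in tiny124. LBD37 was at 42.7, 56.3 and 44.4 CPM in WT, at 106, 92.4 and 95.9 in TINYOE and at 75.3, 72.6 and 80.3 in tiny124. Both were clear of WT (1.29 ± 0.19, adjusted p = 7.42e-04, and 0.85 ± 0.15, adjusted p = 0.00211), and they were the 2 higher of 16 nitrate genes tested, with 2 lower. The 2 lower genes, the nitrate transporters NRT1.1 (-0.95 ± 0.14, adjusted p = 6.05e-04) and NRT1.5 (-1.57 ± 0.20, adjusted p = 1.94e-04), passed in TINYOE only and differed between the lines (adjusted p = 0.00191 and 6.38e-05). MYB51 (AT1G18570), the activator of indolic glucosinolate synthesis, was at 12.9, 12.1 and 13.6 CPM in WT, at 34.7, 34.4 and 39.8 in TINYOE and at 26.5, 19.8 and 23.61 in tiny124. The mean rose by 1.18 ± 0.17, adjusted p = 5.15e-04. CYP81F2, which modifies indolic glucosinolates, rose by 1.52 ± 0.31, adjusted p = 0.00655. Of 16 tested indolic glucosinolate and camalexin genes, 4 were higher and 2 lower in the mean, and 2 were higher in each line. With a library left out, 2 to 4 were higher and 0 to 2 lower. SAG21, a small stress and senescence protein, was at 181, 296 and 199 CPM in WT, at 624, 712 and 687 in TINYOE and at 389, 403 and 419 in tiny124. It rose by 1.21 ± 0.16, adjusted p = 3.92e-04. ERD15, an early dehydration gene, was at 220.2, 437 and 321 CPM in WT, at 660.1, 640.3 and 693 in TINYOE and at 663, 711 and 507 in tiny124, clear of WT in both lines, and rose by 0.99 ± 0.19, adjusted p = 0.00463. DEWAX, a repressor of cuticular wax genes, rose by 0.82 ± 0.16, adjusted p = 0.00518, and the wall enzyme gene XTH30 by 1.55 ± 0.23, adjusted p = 7.37e-04. On the lower side, the plastid aldolase gene FBA1 of the Calvin cycle was at 1036, 1005 and 1029.9 CPM in WT, at 447, 469 and 484 in TINYOE and at 639, 613 and 719 in tiny124. It fell (-0.89 ± 0.12, adjusted p = 3.64e-04).

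Several groups had a lower or higher mean with effects that differed in size or direction between the lines. All 9 aliphatic glucosinolate genes called lower in the mean, of 17 tested, differed between the lines, and none passed in each line (median -0.82 in the mean, -1.33 in TINYOE and -0.16 in tiny124). MYB29, an activator of that pathway, was at 21.1, 19.5 and 23.5 CPM in WT, at 3.13, 3.68 and 2.39 in TINYOE and at 16.4, 12.9 and 11.4 in tiny124. Both lines thus lay below WT in MYB29, tiny124 by less, and no gene of this list passed in tiny124. Jasmonate output genes had medians of -1.45 in TINYOE and 0.54 in tiny124, ER body and lectin genes -0.88 and 0.99, and salicylate perception and output genes 0.98 and -0.37. No member of these 3 lists passed in each line in the same direction. Of 16 aquaporin genes 5 were lower, all of them different between the lines, with 3 lower without WT replicate 1 and 2 without WT replicate 3. Of 82 plastid-encoded genes 19 were lower and none passed in each line, and the count ranged from 4 without WT replicate 1 to 42 without WT replicate 2. Opposite effects could also be averaged. QQS, an orphan gene that affects starch content, was at 116, 111 and 129.98 CPM in WT, at 245, 319.9 and 216 in TINYOE and at 13.6, 8.27 and 7.26 in tiny124, above WT in TINYOE and below it in tiny124. Its mean was -1.24 ± 0.18, adjusted p = 5.76e-04. BAM5, a beta-amylase, had the reverse order, at 23.4, 7.62 and 15.6 CPM in WT, at 1.48, 0.701 and 1.37 in TINYOE and at 32.4, 38.9 and 52.3 in tiny124.

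**Figure D4:**
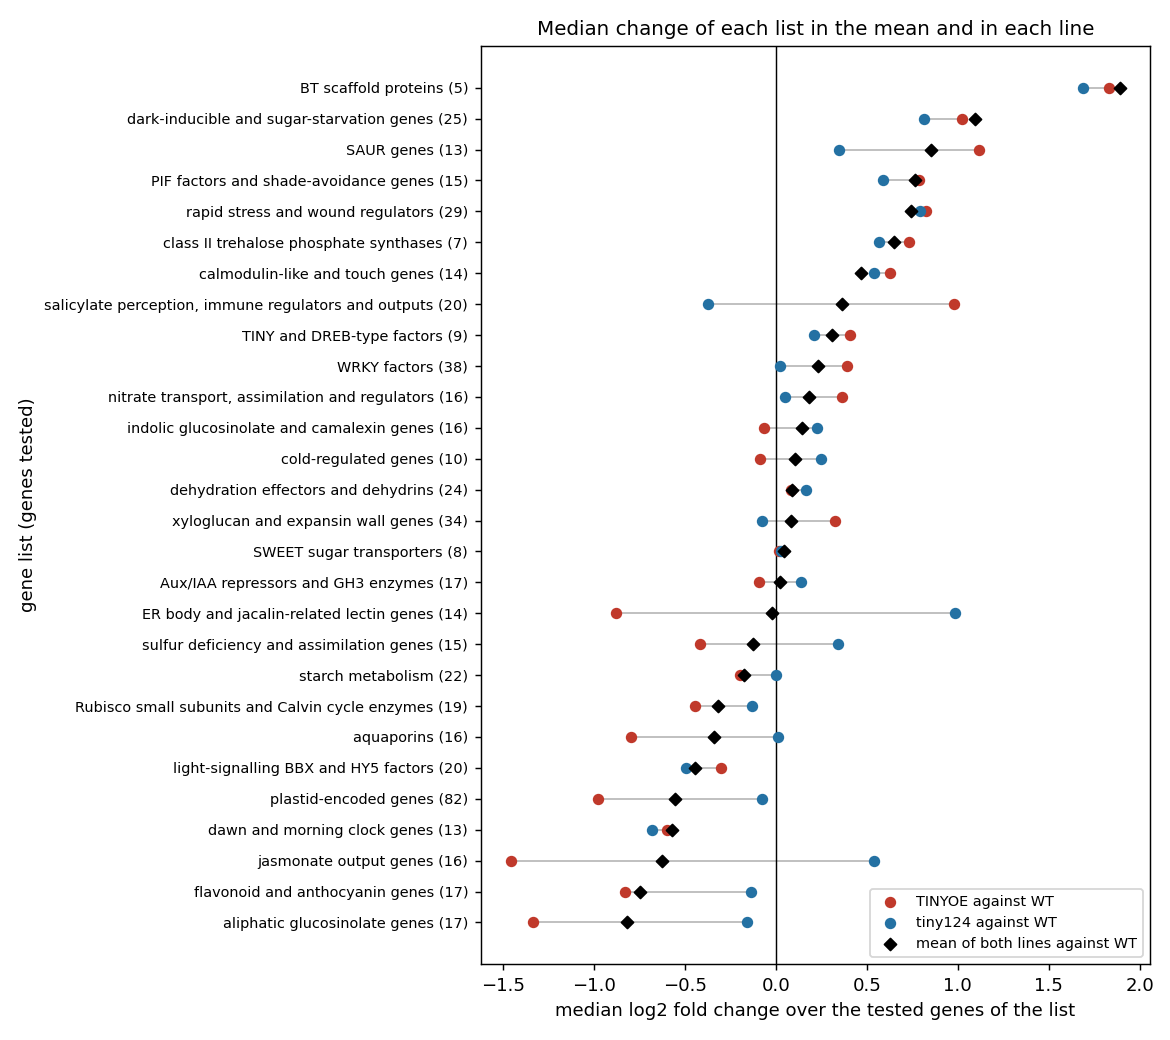
Median log2 fold change over the tested genes of each list with at least 3 genes called in the mean (diamonds, mean of both lines; circles, each line; the number of tested genes is in brackets). BT, dark-inducible, rapid stress and dawn genes have both circles close together on 1 side of 0, whereas jasmonate output, ER body and salicylate lists have them on opposite sides.

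The other lists held few shared changes. No gene of the lists for flowering time (13 tested), ATG8 autophagy proteins (9) and cell division (20) was called in the mean by edgeR. DESeq2 called 0, 1 and 0 of them, and 1, 2 and 2 had an unadjusted p under 0.05. Nuclear photosystem and antenna genes had 1 of 37 lower and Calvin cycle genes 4 of 19 lower (median -0.32). The latter count was 1 without WT replicate 3, TINYOE replicate 2 or tiny124 replicate 1 or 2, and 2 without TINYOE replicate 1 or 3 or tiny124 replicate 3. Xyloglucan and expansin genes had 3 higher and 4 lower of 34, in a list that does not hold XTH22, and XTH30 was the only one of them that passed in each line. EXPB3, an expansin, and EXLB1, an expansin-like gene, passed in TINYOE and differed between the lines (2.65 and -3.16, against -0.26 and 0.25 in tiny124). Abscisic acid genes had 1 higher and 1 lower of 29, or 6.9% called, which is near the 6.53% over all genes. Dehydration genes had 4 higher and 3 lower of 24, with ERD15 the only one that passed in each line. RD26, a NAC factor of the drought response that opposes brassinosteroid signalling, rose in the mean (0.94 ± 0.17, adjusted p = 0.00241), with 0.55 in TINYOE and 1.34 in tiny124 and a difference between the lines of -0.79 (adjusted p = 0.0102). Auxin-induced SAUR genes had 4 of 13 higher, none of them in each line, and none was left without WT replicate 1, WT replicate 3 or tiny124 replicate 2. The SAUR count was 1 without TINYOE replicate 2 or tiny124 replicate 1, 2 without TINYOE replicate 1 or 3, and 7 without WT replicate 2.

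Loci for which the annotation holds no symbol were among the largest shared changes, and those given here were chosen after their values were seen. AT2G15020, an uncharacterized protein, was at 45.9, 36.8 and 26.6 CPM in WT, at 4.28, 2.80 and 4.101 in TINYOE and at 4.52, 8.10 and 5.45 in tiny124. It was 7.62-fold lower (-2.93 ± 0.21, adjusted p = 2.13e-06), a larger decrease than that of any of the 12 lower genes with a symbol. AT2G20670, annotated with a DUF506 domain, was abundant and rose from 74.8, 107 and 64.2 CPM in WT to 539.7, 564 and 523 in TINYOE and 329.5, 413 and 371 in tiny124 (2.45 ± 0.18, adjusted p = 2.13e-06). AT3G07350, a further DUF506 gene, rose by 2.50 ± 0.33, adjusted p = 2.96e-04. AT5G19120, of the aspartyl protease family, rose from 115, 183 and 93.9 CPM to 611, 647 and 567 in TINYOE and 444, 458 and 401 in tiny124 (1.98 ± 0.19, adjusted p = 2.30e-05). AT2G44130, listed as KMD3 of the KISS ME DEADLY kelch-repeat proteins, rose by 1.83 ± 0.31, adjusted p = 0.00174, and by 2.58 without WT replicate 2. AT4G32800, an integrase-type DNA-binding protein, was at 14.6, 7.62 and 14.3 CPM in WT, at 4.94, 4.21 and 3.93 in TINYOE and at 2.07, 1.32 and 1.63 in tiny124. This locus is ERF43, the entry dropped from the list of DREB-type factors above, to which TINY belongs. It fell (-2.17 ± 0.25, adjusted p = 8.41e-05), more in tiny124 than in TINYOE (adjusted p = 0.0205). The labels do not say which locus is meant by tiny4 in the mutant line, and whether it is AT4G32800 was not tested. AT5G15950, an adenosylmethionine decarboxylase, fell as well (-1.78 ± 0.16, adjusted p = 1.31e-05).

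The number of genes called depended on which WT libraries entered the fit. Without WT replicate 2 the mean called 1073 higher and 974 lower genes, without WT replicate 1 it called 328 and 242, and without WT replicate 3 it called 264 and 211. Of the genes called with all libraries, 219 higher and 149 lower kept their call in all 9 fits that left out 1 library. Of those that passed in each line, 155 of 184 and 62 of 68 were called in the mean in all 9 fits, and 63 and 15 passed in each line in all 9. In the authors' deposited table for TINYOE, 226 of these 252 genes (89.7%) were called in the same direction, and in the authors' deposited table for tiny124, 200 (79.4%) were. Those tables list no WT replicate 2 and use the other WT libraries used here, so they are no independent check.

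**Figure D5:**
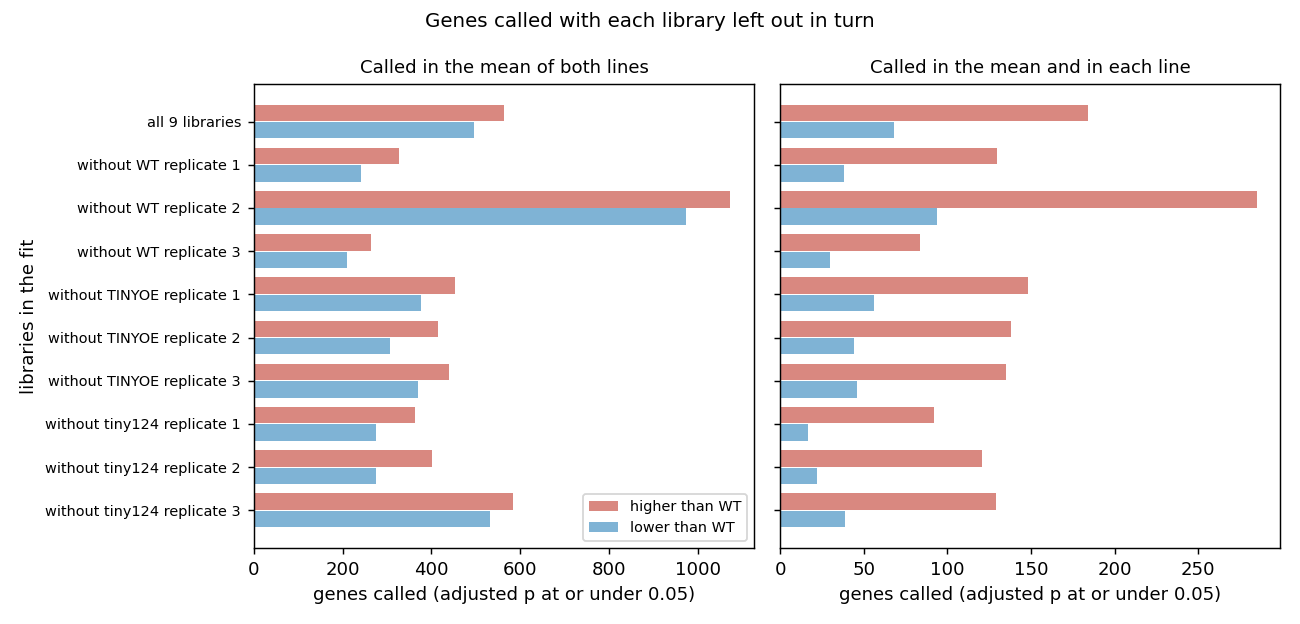
Number of genes called (horizontal axis, from 0) with all 9 libraries and with each library left out in turn, for the mean of both lines (left) and for the genes that also passed in each line (right; the horizontal scales differ). Bars give genes higher and lower than WT, and the counts are highest without WT replicate 2 (1073 and 974 in the mean).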

How the data were processed

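Raw counts per gene were the authors' deposited values: per the labels, reads of 50 nt from QuantSeq FWD libraries, made from about 500 ng of RNA, were trimmed and mapped to TAIR10 with the Lexogen QuantSeq 2.2.2 FWD pipeline, and no source used here names the aligner or the counting rule. The log2 fold changes and adjusted p-values in the authors' deposited tables come from DESeq2, per the file headers and the submitters' processing notes, and those tables list no WT replicate 2.

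From the counts, 1 edgeR 4.0.16 quasi-likelihood model (R 4.3.3) was fitted to all 9 libraries with TMM scaling and filterByExpr, which dropped genes holding 0.296% of counts. The contrast gave each line a weight of 0.5, and the threshold was an adjusted p of 0.05. Locus names and symbols were matched to RefSeq TAIR10.1 for 32548 of 32833 genes, and no coordinates were taken from it. The comparison, its left-out segment and the 58 gene lists were chosen with earlier results of these data known. From the lists 46 entries were dropped because the annotation does not give the locus the written symbol. Named genes were TINY and TINY2, then the 12 per direction with a symbol, a mean of at least 5 CPM, a pass in the mean and in each line and all 6 line libraries beyond WT, ranked by the smaller line effect, then up to 3 called members per list, or the 1 with the smallest p. Further members of the lists that the text describes, and loci without a symbol, were named after their values were seen. Alternatives were DESeq2 1.42.0, its size factors, other filters, the segment left out of the fit, the lines as 1 group, a replicate block and each library left out. The scripts were tested on simulated data. Replicate numbers were not used to pair the samples in the main fit, and no libraries were duplicates.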

Additional observations from a re-analysis of the deposited data

Results flagged for a closer look

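Genes named here whose effect against WT differed between the lines, by edgeR's test of TINYOE against tiny124, are given with the TINYOE minus tiny124 log2 difference. Among the shared genes this was 0.97 for BT2, 0.93 for BT1 and 1.42 for SEN1, which rose more in TINYOE, -1.25 for CYP706A2, which rose more in tiny124, and -1.44 for SOFL1, which fell more in TINYOE. TINY had 2.88.

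The next genes had effects of opposite sign in the lines. The wall genes EXPB3 and EXLB1 had 2.91 and -3.42, and the gibberellin-regulated gene GASA1 had -1.45. In the jasmonate group AOS had -1.66 and JR1 -3.76, in the lectin group JAL23 had -5.99 and MBP1 -4.30, and the specifier protein gene ESP had -2.31. The anthocyanin genes DFR, GSTF12 and MYB75 had -4.16, -3.26 and -3.91. The salicylate genes DMR6 and NIMIN1 had 1.74 and 3.62. The dehydration and cold genes RD20 and LTI30 had -2.40 and 1.77. QQS had 4.75, BAM5 -5.09 and the sulfate transporter gene SULTR2;1 -1.86.

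Other genes named in the text also differed by that test. In TINYOE the effect lay above that in tiny124 by 1.63 for SIS, 1.24 for BGAL4, 0.93 for IVD, 1.66 for CML37, 1.92 for HFR1, 0.73 for HB-2, 0.98 for HAT3, 0.63 for HAT2, 0.73 for LBD38, 0.74 for SAG21, 0.64 for MYB51, 1.37 for ELIP2 and 1.38 for AT4G32800. It lay below, with -1.72 for DIN11, -0.91 for EXO, -0.72 for EXL4, -1.41 for CML38, -0.61 for CML24, -0.79 for RD26, -0.70 for DWF1, -2.14 for MYB29, -2.14 for NRT1.5, -0.91 for NRT1.1, -0.85 for PIF7, -0.49 for FBA1 and -0.82 for AT5G15950.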

How the results depend on the processing

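Of 2415 values over the alternatives for 152 genes, 2016 kept both, 381 kept the direction but missed the threshold, 14 came to pass it and 4 turned sign. The 4 arose when the lines were fitted as 1 group, where JAL23 was at 0.22, MBP1 at 0.13, QQS at 0.19 and BAM5 at 0.44, and none passed. That fit kept the calls or non-calls of 74 named genes and lost the calls of 74. It called 186 higher and 87 lower in the mean, with 11 of the dark-inducible genes, 7 of the rapid stress genes, 2 of the touch genes and 1 of the shade genes higher, and 5 of the dawn genes lower. With no filter on low counts 916 were higher and 821 lower, with 298 higher in each line, 482 and 218 for tiny124 alone, and 673 called in the mean with lines that differed. The cause was not tested.

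With a library left out, the mean had 264 to 1073 higher and 211 to 974 lower, each line had 84 to 285 higher together and 17 to 94 lower together, TINYOE had 767 to 2015 higher and 712 to 1891 lower, tiny124 had 129 to 370 higher and 34 to 150 lower, and 157 to 758 genes called in the mean had lines that differed. Same-numbered libraries had correlations of deviations from -0.307 to 0.360 across genes, and differently numbered ones from -0.415 to 0.440. Replicate numbers were therefore not used as pairs, and whether libraries shared a harvest or batch was not tested. A fit with the number as a replicate block called 439 higher and 350 lower in the mean, 38 lower in each line and 75 lower in tiny124. Depth limits genes of low count, and 3 libraries a genotype, with WT the most spread, limit the rest. Both lines were set against the same WT libraries, so a gene that was off in WT moves in both.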
